A study of Mus musculus with 6 samples.

Results

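BRCA1 complexes and the pathways of DNA repair were followed in microglia, the macrophages that live in the brain and spinal cord, through a list of 46 genes sorted by repair pathway. Of these, 44 had a probe set on the array that maps to their symbol alone, and the other 2, both of homologous recombination, are not analysed here. The brightest such probe set over all arrays stood for the gene, as it did for each of the 18193 genes measured. CD11b-positive cells had been sorted from the lumbar spinal cord of male mice aged 90 days (P90), and each array carried RNA pooled from at least 6 mice. The SOD1 G93A group (3 arrays) carried many copies of a human *SOD1* gene with the G93A mutation and models amyotrophic lateral sclerosis at an early symptomatic age, and the WT group (3 arrays) were littermates without it, all on a mixed B6SJL background. A pool hides the spread between mice, so that each p-value rests on the spread between pools, 3 of a genotype. In limma, the moderated test used below, the spread of a gene is drawn toward that of all probe sets.

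A double-strand break is sensed by the kinases ATM and ATR, which act through the checkpoint kinases CHK1 and CHK2. It is then mended either by homologous recombination, which copies the sister chromatid and needs BRCA1, PALB2 and BRCA2, or by end joining, which works at any stage of the cell cycle. Damaged or mispaired bases are handled by base excision, nucleotide excision and mismatch repair, and crosslinks between strands by the Fanconi anaemia proteins. Microglia divide rarely in the healthy cord and proliferate in the SOD1 mouse, and several genes of homologous recombination are transcribed mainly in dividing cells.

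Signals are on a log2 scale, with array medians between 5.93 and 5.97. The 10 microglial markers measured had mean signals of 8.72 or more. The log2 of their summed signal ran from 16.26 to 16.40 in SOD1 G93A and from 16.01 to 16.16 in WT. Markers of other cells were also present and moved with genotype. Some of neutrophils and monocytes were about as bright as the microglial ones. *S100a8* had a mean of 14.32, beside 14.37 for *Csf1r*, the brightest microglial marker. Of the astrocyte markers 4 of 8 were lower in SOD1 G93A, of the oligodendrocyte markers 2 of 7, of the neurone markers 3 of 8, and of the neutrophil and monocyte markers 2 of 8. Of the 10 microglial markers 3 were higher, *Fcrls*, *Trem2* and *Tyrobp*, and the others did not pass. Among all 10, 5 lay above 0 and 5 below. The log2 of the summed signal of the astrocyte list ran from 9.94 to 10.72 in SOD1 G93A and from 11.09 to 12.03 in WT, that of the oligodendrocyte list from 13.17 to 13.34 and from 13.88 to 14.48, that of the neurone list from 8.53 to 8.85 and from 9.60 to 9.80, and that of the neutrophil and monocyte list from 15.56 to 15.97 and from 15.89 to 16.46. None of the 7 lymphocyte markers passed by limma, 1 had an unadjusted p under 0.05, and their summed signal ran from 8.57 to 8.57 and from 8.59 to 8.64. Their part in the differences below was not tested. The 3′ minus 5′ signal of *Gapdh*, a measure of RNA length, was 4.12 ± 0.59 (SD, n = 3) in SOD1 G93A and 4.89 ± 0.11 (SD, n = 3) in WT (p = 0.1 by an exact permutation test over the arrays, two-sided, which cannot give less with 3 against 3). That of *Actb* was 2.67 ± 0.72 and 3.42 ± 0.49 (p = 0.2 by the same exact test).

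Of the 44 repair genes, 3 were higher in SOD1 G93A microglia and none was lower at an adjusted p under 0.05 (limma, Benjamini-Hochberg over all genes). They were *Brca1*, *Chek1* and *Palb2*. The share of members that were higher, 6.82%, stands beside 4.09% of all genes higher and 2.53% lower. Before adjustment, 13 members had a p under 0.05, of which 11 (of 44) lay above 0, as did 12.7% of all genes at that limit, and 2 below, as did 8.86%. Most members lay slightly above 0: 35 of 44 (79.5%) had a positive log2 fold change against 54.4% of all genes, and their median was 0.17 (1.13-fold) against 0.02 over all genes. All 3 SOD1 G93A arrays were above all 3 WT arrays in 17 members (38.6%), as in 16.6% of all genes, and below them in 1 member, *Xpc*, as in 10.9% of all genes. With the fold and the unadjusted p that the study's methods set as limits, *Brca1* was the sole member called, where 1.54% of all genes were higher and 1.54% lower. None of the 3 passed with the *Gapdh* 3′ minus 5′ signal as a covariate (adjusted p of 0.143 for *Brca1*, 0.115 for *Chek1* and 0.184 for *Palb2* by limma), while their log2 fold changes there were 0.73, 0.81 and 0.53. Microglia with more of a transcript and a larger number of microglia that hold it cannot be told apart in pooled RNA. Neither can be told apart from a changed share of the other cells whose markers moved with genotype.

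**Figure D1:**
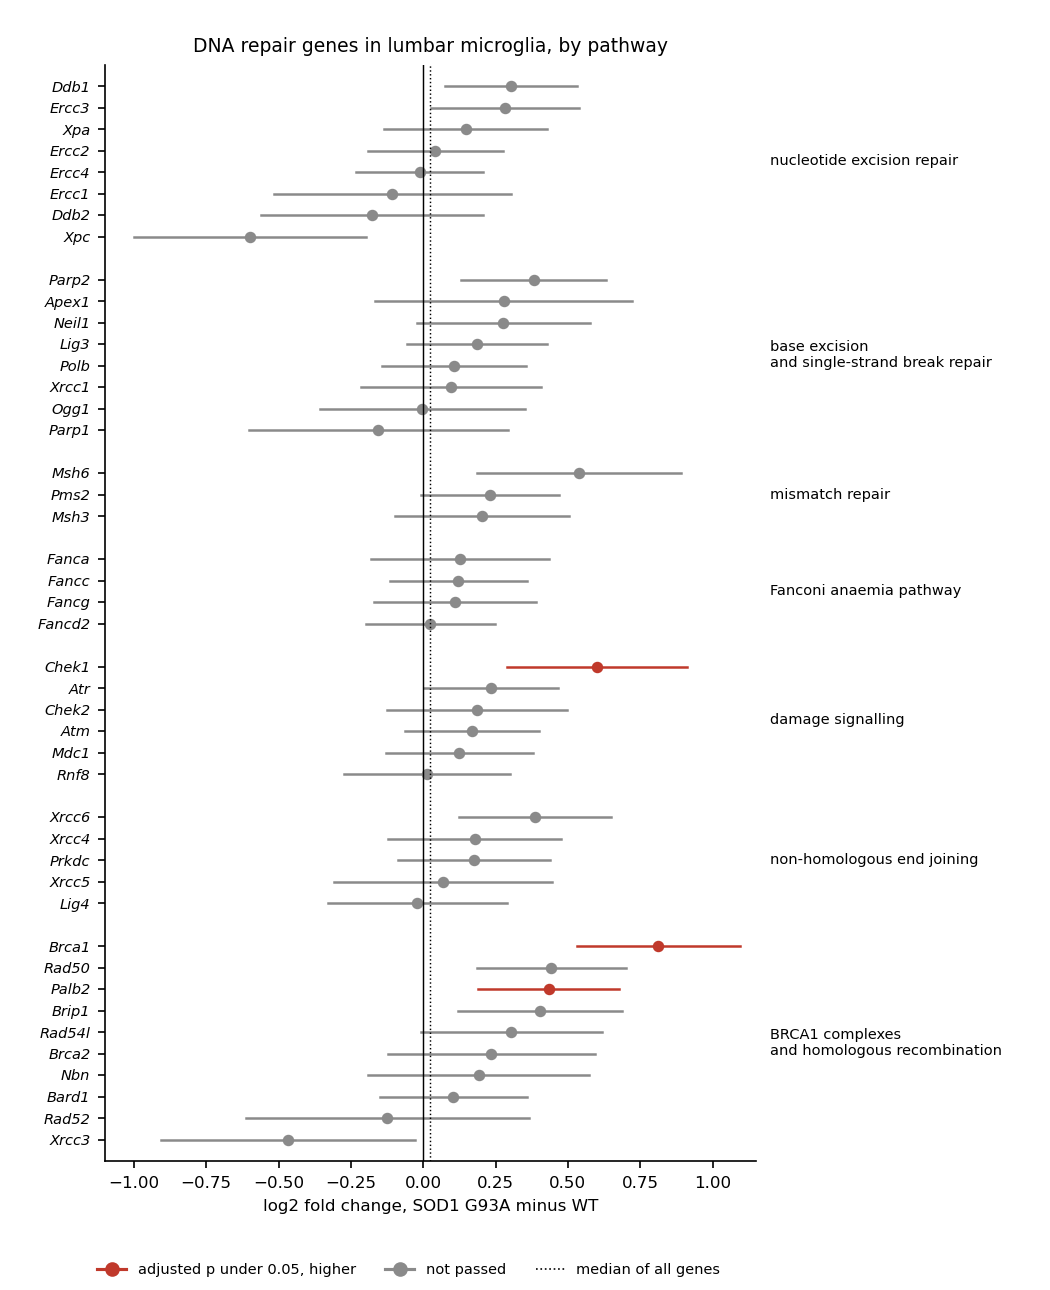
The log2 fold change (x axis, SOD1 G93A minus WT) of each of the 44 repair genes, grouped by pathway. Points are estimates, bars are 95% intervals from limma, red marks genes that passed at an adjusted p under 0.05 and the dotted line is the median of all genes (0.02). *Brca1*, *Palb2* and *Chek1* are red, and *Xpc* and *Xrcc3* lie farthest to the left.

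The balance above 0 was that of the brightest probe sets, and the other probe sets of the same genes did not have it. The members had 53 other probe sets, of which 27 (50.9%) were above 0, beside 50.5% of the 16752 other probe sets of all genes. Among the 38 of them with a mean log2 signal of at least 5, 17 were above 0. Of the 26 members with more than 1 probe set, 21 had probe sets of both signs.

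The first group was BRCA1 with its partners and the proteins of homologous recombination, and of its 10 genes measured 2 were higher and 8 did not pass, with a median log2 fold change of 0.27. *Brca1* codes for the ubiquitin ligase and scaffold around which these complexes form. Its log2 signal was 5.91, 5.94 and 5.97 on the SOD1 G93A arrays and 4.89, 5.25 and 5.23 on the WT arrays. The SOD1 G93A arrays lay within 0.1 of each other and well above every WT array, the lowest of which was WT 1. The log2 fold change was 0.81 (SE 0.12, 95% interval 0.53 to 1.09, 1.76-fold), with an adjusted p of 0.00864 by limma. It passed in each of the 6 fits that left out 1 array, with adjusted p between 0.0111 and 0.0433.

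*Palb2* codes for the protein that bridges BRCA1 and BRCA2. It gave log2 signals of 6.12, 6.06 and 6.00 in SOD1 G93A and 5.75, 5.54 and 5.59 in WT, and the arrays of the genotypes did not overlap. The log2 fold change was 0.43 (SE 0.11, 1.35-fold, adjusted p = 0.0471 by limma), close to the threshold, and the adjusted p was 0.0568 over all probe sets. It passed in 1 of the 6 fits that left out 1 array, the one without WT 1 (adjusted p = 0.0419), and the adjusted p reached 0.146 without WT 2.

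The upstream sequences of these genes are shown because *Brca1* and *Palb2* both start head to head with another gene, so that 1 short stretch lies between a pair of starts. The *Brca1* start lies 152 bases from that of *Nbr1*, a receptor of selective autophagy, and the *Palb2* start lies 95 bases from that of *Dctn5*, a subunit of dynactin. *Chek1*, described with the damage kinases below, has no start of another gene on the opposite strand within 1000 bases upstream, so that its 250 bases before the start are given. The stretches come from RefSeq (GRCm38.p6) and run 5′ to 3′ on the minus strand, toward the repair gene, at chr11:101551956-101552106, chr7:122132947-122133040 and chr9:36726659-36726908. Capitals mark CCAAT on either strand.
Brca1: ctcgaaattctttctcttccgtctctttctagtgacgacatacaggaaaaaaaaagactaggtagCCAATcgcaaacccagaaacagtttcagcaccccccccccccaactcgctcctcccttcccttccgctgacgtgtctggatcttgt
Palb2: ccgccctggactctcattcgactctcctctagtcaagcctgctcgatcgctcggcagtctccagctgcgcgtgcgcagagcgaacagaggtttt
Chek1: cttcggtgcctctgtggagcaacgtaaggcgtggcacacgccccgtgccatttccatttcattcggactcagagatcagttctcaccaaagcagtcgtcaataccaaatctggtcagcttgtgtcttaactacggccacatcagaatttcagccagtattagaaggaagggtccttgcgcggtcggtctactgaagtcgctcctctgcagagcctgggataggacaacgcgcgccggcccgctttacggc

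The neighbours of *Brca1* and *Palb2* did not pass. The log2 signal of *Nbr1* was 10.03, 10.65 and 10.33 in SOD1 G93A and 10.25, 10.41 and 10.23 in WT, a difference of 0.04 (95% interval -0.32 to 0.40, adjusted p = 0.926 by limma). That of *Dctn5* was 8.50, 8.08 and 7.95 in SOD1 G93A and 8.53, 8.23 and 8.55 in WT, a difference of -0.26 (95% interval -0.63 to 0.10, adjusted p = 0.4 by limma). In both pairs the arrays of the repair gene separated by genotype and those of its neighbour overlapped. Whether a pair differed in its response was not tested. Of the 36 members with a RefSeq promoter window, 13 (36.1%) had such a neighbour within 1000 bases, as did 12.3% of the 27025 genes with a window. Of these 13 neighbours 11 were measured, and none passed.

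**Figure D2:**
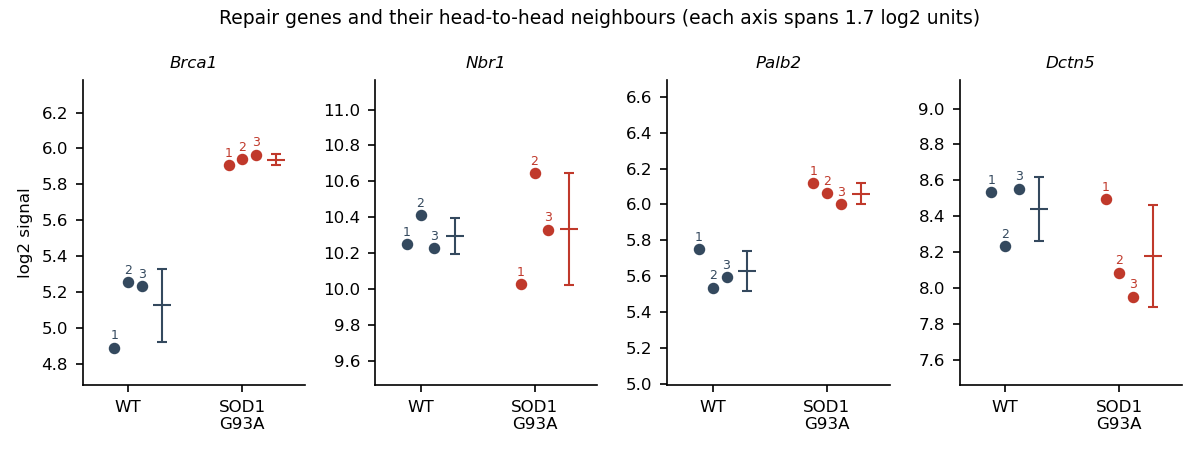
The log2 signal on each array (numbered points) of *Brca1* and *Palb2* and of the genes that start head to head with them, *Nbr1* and *Dctn5*, with the group mean and SD beside the points. The SOD1 G93A arrays of *Brca1* (5.91 to 5.97) and *Palb2* (6.00 to 6.12) lie above all WT arrays, and those of both neighbours overlap with WT.

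The CCAAT motif, the letters to which the factor NF-Y binds, was found on either strand in the windows of 21 of the 36 members (58.3%), *Brca1* and *Palb2* among them, and in 37.4% of all 32851 windows of 250 bases before to 50 bases after a start. The log2 fold changes of these 21 ran from -0.47 to 0.81 with a median of 0.15, below the 0.17 of all members, and *Brca1* and *Palb2* were the 2 that passed. In *Palb2* the match lay after the start, outside the stretch printed. E2F factors switch on genes of the S phase, and their site was searched in 4 spellings, TTTGGCGC, TTTCCCGC, TTTCGCGC and TTTGCCGC, on either strand. These letters were in 2.26% of all windows and in those of 8 members (22.2%), *Bard1*, *Brca2*, *Chek2*, *Fancg*, *Mdc1*, *Msh3*, *Msh6* and *Xrcc6*. The log2 fold changes of these 8 ran from 0.10 to 0.54 with a median of 0.19, and none passed. The windows of *Brca1*, *Palb2* and *Chek1* did not hold these letters.

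Of the other direct partners of BRCA1, none passed. *Bard1*, whose product forms the ubiquitin ligase together with BRCA1, had log2 signals of 4.42, 4.55 and 4.30 in SOD1 G93A and 4.24, 4.32 and 4.40 in WT, a difference of 0.10 (95% interval -0.15 to 0.36) with overlapping arrays. *Brip1*, the helicase bound by BRCA1, had 4.21, 3.95 and 3.85 against 3.53, 3.72 and 3.55, a difference of 0.40 (adjusted p = 0.0963 by limma) without overlap. Both were dim, with means below 5, and they were the only members below that limit. *Brca1* and *Palb2*, with means of 5.53 and 5.84, were also below the array medians, as were some other members. *Brca2*, a tumour suppressor of homologous recombination, had 7.50, 7.30 and 7.02 against 7.27, 6.86 and 6.98, a difference of 0.24 (95% interval -0.12 to 0.59) with overlap.

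*Xrcc3*, a gene of homologous recombination, had the most negative value of the group. On the log2 scale it gave 6.31, 5.96 and 5.97 in SOD1 G93A and 6.95, 6.19 and 6.51 in WT. The highest value was that of WT 1, and the highest SOD1 G93A array lay above the lowest WT array. The difference was -0.47 (95% interval -0.91 to -0.03, adjusted p = 0.2 by limma), and the second probe set of the gene gave 0.08. *Rad50*, the zinc-hook subunit of the complex that resects breaks, lay next to the threshold and is named after its values were seen. Its signal was 7.49, 7.56 and 7.63 in SOD1 G93A and 7.11, 7.27 and 6.98 in WT, a difference of 0.44 with an adjusted p of 0.0536 by limma. The other probe set of *Rad50* gave -0.03 at a mean signal of 3.55, and the average of both was 0.21 (adjusted p = 0.169 by limma). The other members of the group, *Nbn*, *Rad52* and *Rad54l*, ranged from -0.12 to 0.30. *Rad52*, which anneals single strands, passed as lower in the fit without both arrays numbered 1 (-0.48, adjusted p = 0.0428 by limma). The other probe set of *Rad52* gave 0.23 over all 6 arrays, at a mean signal of 4.57.

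*Brca1* was measured by 4 probe sets, and its difference was seen on 1 of them. The second, 1427698_at, had log2 signals of 5.32, 5.27 and 5.22 in SOD1 G93A and 5.63, 5.43 and 5.32 in WT, a difference of -0.19. The third and the fourth gave -0.12 and 0.15 at mean signals of 4.60 and 3.06. The first had a mean signal of 5.53, close to the 5.37 of the second. The average of the 4 was 0.16 higher in SOD1 G93A (adjusted p = 0.284 by limma), so that the call of *Brca1* was lost when all its probe sets were averaged.

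**Figure D3:**
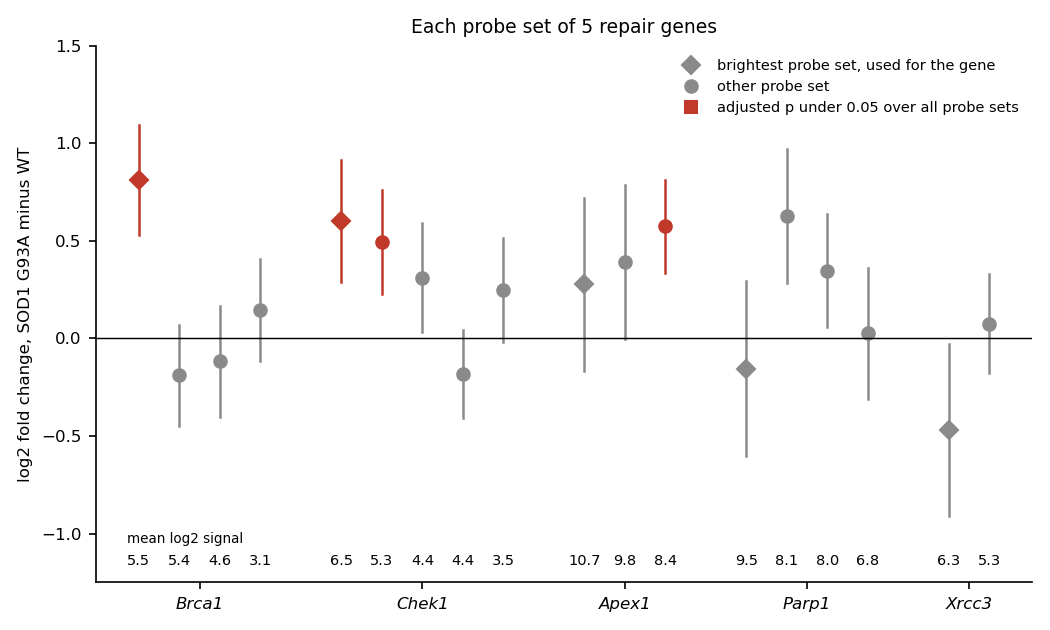
The log2 fold change (y axis, SOD1 G93A minus WT, with 95% intervals) of every probe set of *Brca1*, *Chek1*, *Apex1*, *Parp1* and *Xrcc3*, with the brightest as a diamond and the mean log2 signal written underneath. Red marks an adjusted p under 0.05 over all probe sets. *Brca1* is red on 1 probe set of 4, *Chek1* on 2 of 5 and *Apex1* on 1 of 3, which is not its brightest.

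Of the 6 genes of damage signalling 1 was higher and 5 did not pass, with a median of 0.18 and all 6 above 0. *Chek1* codes for CHK1, the kinase that holds the cell cycle when replication stalls. Its log2 signal was 7.04, 6.65 and 6.64 in SOD1 G93A and 6.11, 6.12 and 6.30 in WT, with SOD1 G93A 1 well above the other two arrays of its genotype and no overlap. The log2 fold change was 0.60 (SE 0.14, 1.52-fold, adjusted p = 0.0372 by limma). The second probe set, 1450677_at, gave 5.51, 5.59 and 5.51 against 4.87, 5.21 and 5.05, a difference of 0.49, which also passed over all probe sets. The remaining 3, with mean signals from 3.49 to 4.44, gave 0.31, -0.18 and 0.25. *Chek1* did not pass in any of the 6 fits that left out 1 array, with adjusted p between 0.0600 and 0.113 and log2 fold changes between 0.47 and 0.67. The average of its 5 probe sets was 0.29 higher (adjusted p = 0.0649 by limma) and did not pass either.

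*Atr*, the kinase upstream of CHK1, had signals of 7.74, 7.81 and 7.86 in SOD1 G93A and 7.55, 7.65 and 7.50 in WT. These did not overlap, and the difference of 0.23 did not pass (adjusted p = 0.226 by limma). Its 2 other probe sets gave -0.08 and -0.06. *Atm*, *Chek2*, *Mdc1* and *Rnf8*, which code for the other apical kinase, its checkpoint kinase, and a scaffold and a ubiquitin ligase at damaged chromatin, ranged from 0.01 to 0.19.

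**Figure D4:**
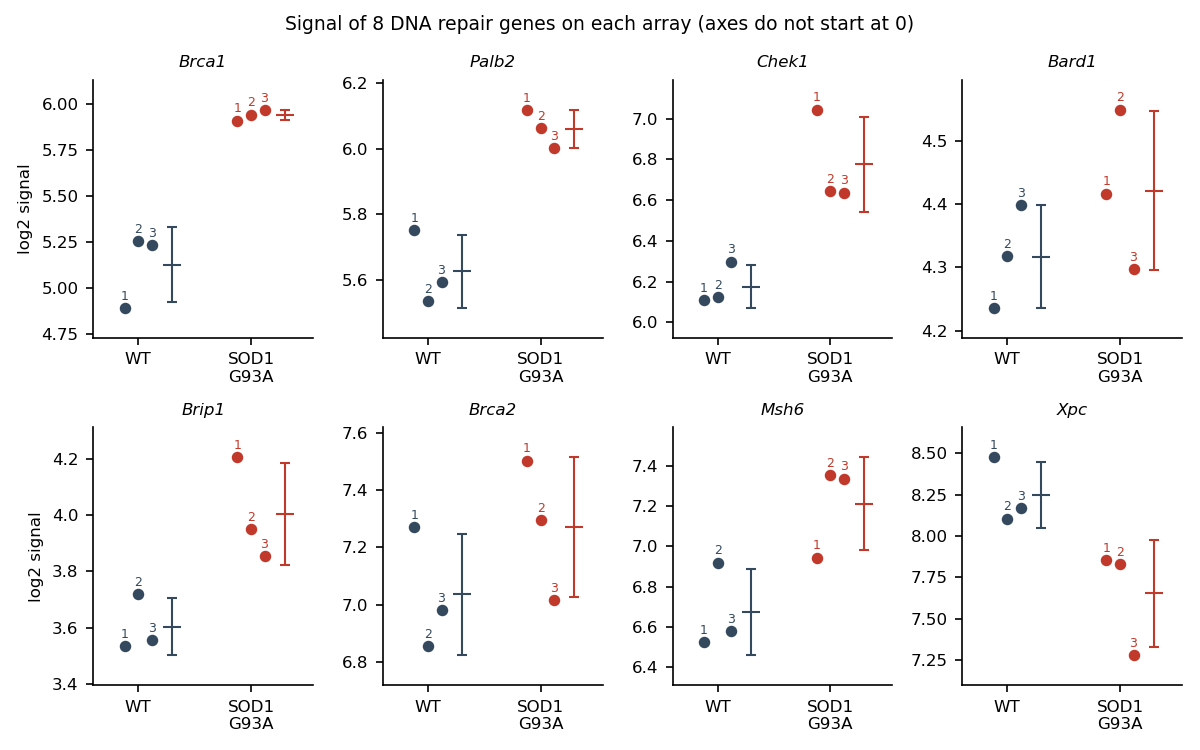
The log2 signal of 8 repair genes on each array, with WT in blue and SOD1 G93A in red. Numbers are the arrays of each genotype, and the bars beside them are the group mean and SD (n = 3). *Brca1*, *Palb2*, *Chek1*, *Brip1* and *Msh6* separate upward, *Xpc* separates downward, and *Bard1* and *Brca2* overlap.

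None of the 5 genes of non-homologous end joining passed, 1 had an unadjusted p under 0.05, and their median was 0.18. *Xrcc6*, which codes for the KU70 subunit that caps broken ends, had the largest difference. It measured 7.13, 6.95 and 7.15 in SOD1 G93A and 6.80, 6.55 and 6.71 in WT, a difference of 0.39 without overlap (adjusted p = 0.0854 by limma). *Xrcc4*, the partner of the ligase of this pathway, had 6.63, 6.68 and 6.58 against 6.21, 6.47 and 6.67, a difference of 0.18 with overlap. *Xrcc5*, the KU80 subunit, *Prkdc*, the kinase held by KU, and *Lig4*, the ligase, ranged from -0.02 to 0.18. On their brightest probe sets the KU subunits had values of 0.39 for *Xrcc6* and 0.07 for *Xrcc5* (95% interval -0.31 to 0.45). The other probe set of *Xrcc6* gave -0.03 at a mean signal of 5.55, and the average of both was 0.18 (adjusted p = 0.45 by limma). A difference between the subunits was not tested.

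The 4 Fanconi anaemia genes had the narrowest range of the pathways, from 0.02 to 0.13, and none passed or had an unadjusted p under 0.05. *Fanca* and *Fancc*, both of the core complex that ubiquitylates FANCD2, had the largest differences. *Fanca* had signals of 6.84, 6.51 and 6.41 in SOD1 G93A and 6.34, 6.51 and 6.52 in WT, a difference of 0.13 (95% interval -0.18 to 0.43). *Fancc* had 7.08, 6.93 and 6.95 against 6.90, 6.92 and 6.78, a difference of 0.12 (95% interval -0.12 to 0.36). *Fancd2* itself differed by 0.02 (95% interval -0.20 to 0.25).

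The 3 mismatch repair genes were all above 0, with a median of 0.23, and none passed. *Msh6* codes for the subunit that reads single mispairs. Its log2 signal was 6.94, 7.35 and 7.34 in SOD1 G93A and 6.52, 6.92 and 6.58 in WT, and the lowest SOD1 G93A array lay just above the highest WT array. The difference was 0.54 (SE 0.16, adjusted p = 0.0768 by limma), and it passed when SOD1 G93A 1 was left out (0.67, adjusted p = 0.0352 by limma). *Pms2*, a subunit of the nuclease that follows mismatch recognition, had 7.07, 6.91 and 6.87 against 6.69, 6.70 and 6.77, a difference of 0.23 without overlap. *Msh3*, the alternative partner to *Msh6*, differed by 0.20.

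The 8 genes of base excision and single-strand break repair had a median of 0.15, and none passed on its brightest probe set. *Parp2*, a poly(ADP-ribose) polymerase that binds broken DNA, had signals of 8.81, 8.73 and 8.78 in SOD1 G93A and 8.50, 8.23 and 8.44 in WT, a difference of 0.38 without overlap (adjusted p = 0.0787 by limma). *Apex1*, the endonuclease that cuts at sites without a base, was the brightest member. Its signals were 11.16, 10.72 and 10.60 against 10.91, 10.26 and 10.47, a difference of 0.28 (95% interval -0.17 to 0.72) in which arrays overlapped.

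Other probe sets of *Apex1* and *Parp1* gave other values, and both are given because the probe set decided the result. The *Apex1* probe set 1416135_at, dimmer than the 2 others of the gene, had 8.74, 8.64 and 8.65 in SOD1 G93A and 8.21, 8.03 and 8.06 in WT, a difference of 0.58 that passed over all probe sets (adjusted p = 0.0212 by limma). *Parp1*, the main poly(ADP-ribose) polymerase, was chosen after its values were seen. Its brightest probe set had 9.53, 9.44 and 9.28 against 10.06, 9.28 and 9.37, a difference of -0.15 in which WT 1 was the highest array. Its second, 1422502_at, had 8.19, 8.32 and 8.67 against 7.57, 7.88 and 7.86, a difference of 0.63 without overlap (adjusted p = 0.0526 over all probe sets by limma). The other members of the pathway, *Ogg1*, *Neil1*, *Polb*, *Xrcc1* and *Lig3*, which are glycosylases, a polymerase, a scaffold and a ligase, ranged from -0.0034 to 0.28.

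Nucleotide excision repair was the pathway with the lowest median, 0.01, with 4 of its 8 genes above 0 and 4 below, and none passed. *Xpc* codes for the protein that finds distorted DNA across the genome. The signal was 7.85, 7.83 and 7.28 in SOD1 G93A and 8.48, 8.10 and 8.17 in WT, so that every SOD1 G93A array lay below every WT array. The difference was -0.60 (SE 0.18, 95% interval -0.998 to -0.198, adjusted p = 0.083 by limma). *Ddb1*, which forms the damage-binding complex with DDB2, had 9.53, 9.60 and 9.56 against 9.34, 9.18 and 9.26, a difference of 0.30 without overlap (adjusted p = 0.117 by limma). *Ddb2*, its partner, had a difference of -0.18 (95% interval -0.56 to 0.21) with overlap. The other probe set of *Ddb2*, at a mean signal of 6.70, gave 0.21 without overlap. The helicase genes *Ercc2* and *Ercc3* gave 0.04 and 0.28, the nuclease genes *Ercc1* and *Ercc4* -0.11 and -0.01, and *Xpa*, which verifies the lesion, 0.15.

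Beyond these genes, 65 of 75 further repair genes were measured, with a median of 0.10. Of them 4 were higher and none was lower by limma. The share higher was 6.15%, beside the 4.09% of all genes. Before adjustment 18 (27.7%) had a p under 0.05, all of them above 0, beside 12.7% of all genes. *Alkbh2*, which removes alkyl groups from bases directly, had the largest difference of any repair gene measured. The log2 signal was 7.68, 7.41 and 7.79 in SOD1 G93A and 6.43, 6.11 and 6.07 in WT, a log2 fold change of 1.43 (SE 0.14, 2.69-fold, adjusted p = 0.00181 by limma). *Ung*, the glycosylase that removes uracil, had 7.42, 7.45 and 7.65 against 6.90, 6.51 and 6.49, a rise of 0.87 (adjusted p = 0.0104 by limma). *Lig1* and *Dna2*, the ligase and the nuclease that finish Okazaki fragments, rose by 0.55 and 0.50 (adjusted p of 0.024 and 0.0233 by limma). In all 4 genes the arrays of the genotypes did not overlap. *Alkbh2* passed whichever array was left out, *Ung* not without SOD1 G93A 3 or WT 3 (adjusted p of 0.0516 and 0.051 by limma), *Dna2* in 2 of the 6 such fits (without SOD1 G93A 1 or WT 1) and *Lig1* in none (0.0518 to 0.0835).

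Of the 35 cell cycle genes measured, 5 were higher and none was lower by limma (12 and 0 with a p under 0.05 before adjustment), with a median of 0.27. The share higher was 14.3%, beside 4.09% of all genes, and 34.3% beside 12.7% before adjustment. *Pcna*, the sliding clamp shared by replication and repair, had 10.29, 10.25 and 10.39 in SOD1 G93A and 9.32, 9.52 and 9.43 in WT, a log2 fold change of 0.88 (adjusted p = 0.00327 by limma). *Gins1* and *Gins2* of the replicative helicase rose by 0.80 and 0.50 (adjusted p of 0.0338 and 0.0268 by limma). *Mcm3* and *Mcm2* of the same machine rose by 0.70 and 0.54 (adjusted p of 0.0191 and 0.0401 by limma). Other genes of replication in the list did not pass, and the examples here were chosen after their values were seen. The lowest were *Mcm4* (-0.31), *Rrm2* (-0.23), *Cdc45* (-0.037) and *Mcm5* (0.031). Others lay above 0, such as *Uhrf1* (0.47), *Mcm6* (0.35) and *Rrm1* (0.33), each without overlap, and *Mcm7* (0.27). No mitotic gene of the list passed either. The largest values among these were *Bub1* (0.85), *Cdk1* (0.79) and *Aurkb* (0.77), each with WT 1 as its lowest array. The smallest were *Kif11* (-0.17), *Cdc20* (-0.064), *Birc5* (-0.036) and *Plk1* (-0.014), and the rest lay in between. WT 1 was the lowest WT array in every mitotic gene of the list but *Tpx2*. In *Mki67* it was 8.45, with 9.72 and 9.66 on the other WT arrays and 9.13 to 9.59 in SOD1 G93A. The probe set decided several values of the replication genes that passed. Without suffixed probe sets *Mcm3* was 0.34 (adjusted p = 0.356 by limma), *Gins2* was 0.52 (0.0631) and *Mcm2* was 1.38, and with averaged probe sets *Gins1* was 0.49 (0.12) and *Mcm2* 0.96. *Pcna* passed whichever array was left out. *Gins1*, *Gins2* and *Mcm2* passed only without WT 1 (adjusted p of up to 0.129 otherwise, by limma), and *Mcm3* only without SOD1 G93A 1 or WT 1 (up to 0.0823). The log2 of the summed signal of the list ran from 13.32 to 13.49 in SOD1 G93A and from 12.88 to 13.27 in WT, and its part in the differences of *Brca1*, *Chek1* and *Palb2* was not tested.

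Lastly, 6 of the 7 genes that the study placed in the Brca1 pathway were measured, and all 6 passed, 4 higher and 2 lower. The study had chosen them on these samples, so that this is no independent evidence of their direction. Beside *Brca1* and *Pcna*, *Cdkn1a*, which codes for the cell cycle inhibitor p21, had 10.53, 10.50 and 10.29 in SOD1 G93A and 9.58, 9.68 and 9.69 in WT, a rise of 0.79. *Myc*, a growth-promoting transcription factor, had 8.84, 8.43 and 8.62 against 7.67, 7.87 and 7.81, a rise of 0.84. *Gadd45a*, a stress-induced gene that acts in growth arrest, had 7.14, 7.59 and 7.22 against 8.83, 8.84 and 8.44 and fell by 1.39. *Sp3*, a transcription factor of GC-rich promoters, had 7.53, 7.60 and 6.87 against 7.99, 8.61 and 8.11 and fell by 0.90 (adjusted p = 0.0472 by limma). Of these, *Sp3* alone was lost with an array left out, passing only without WT 1 (adjusted p from 0.0516 to 0.137 otherwise, by limma).

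**Figure D5:**
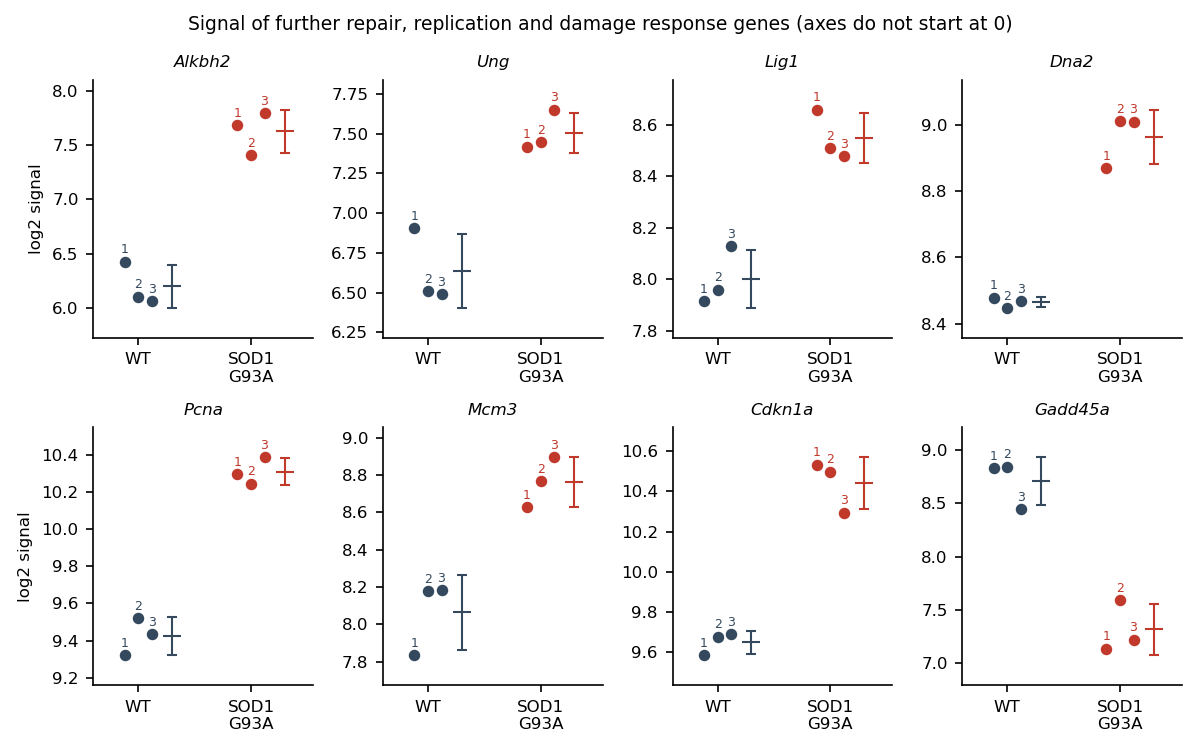
The log2 signal on each array of 4 further repair genes (*Alkbh2*, *Ung*, *Lig1*, *Dna2*), 2 replication genes (*Pcna*, *Mcm3*) and 2 damage response genes (*Cdkn1a*, *Gadd45a*), with the group mean and SD beside the points. The 3 SOD1 G93A arrays lie above the 3 WT arrays in all but *Gadd45a*, where they lie below.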

How the data were processed

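Doubly amplified RNA of sorted lumbar microglia was hybridised to Affymetrix arrays of the mouse genome. The authors deposited log2 signals per probe set, made by RMA in Partek per the submitters' processing notes, without a version. The study's methods instead name the Affymetrix MAS software, whose present and absent calls were not used. Genotype was the single term of a limma model (version 3.58.1 in R 4.3.3, lmFit then eBayes) over 45037 probe sets, control probe sets left out, and Benjamini-Hochberg adjustment ran over 18193 genes with a threshold of 0.05. "Over all probe sets" means adjustment over the 45037. Permutation tests used scipy 1.17.1 and numpy 2.4.6 with pandas 2.3.3 in Python 3.11.15.

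Full values are given for members that passed, for *Brca1* and its direct partners, and for the 2 members of each pathway with the largest absolute log2 fold change. They are also given for *Alkbh2*, *Ung* and *Pcna* of the further lists and for the Brca1 pathway genes of the study. The other genes that passed in the further repair and cell cycle lists have their log2 fold change and adjusted p. The members and lists were chosen with earlier results of these data known. Older symbols were matched through RefSeq synonyms. On simulated data with 50 genes changed by each fold, limma recovered 17 at 1.5-fold and 37 at 2-fold. The array number limits the precision. The labels give no batch. Alternatives covered the test, the probe sets, a signal filter, scaling, array weights, a replicate block, RNA length and left-out arrays.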

Additional observations from a re-analysis of the deposited data

How the results depend on the processing

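Under 16 alternatives *Brca1* kept a positive log2 fold change in all, and its call was lost when probe sets were averaged (0.16), with the *Gapdh* 3′ minus 5′ signal as a covariate (0.73, adjusted p = 0.143 by limma) and by the methods' t-test. The number of repair genes that passed, 3 of 44, became 0 by the methods' t-test after Benjamini-Hochberg, as it did over all genes (13 at an unadjusted p under 0.05, and *Brca1* at the fold set by the methods), 0 with the *Gapdh* covariate (11 at an unadjusted p under 0.05, with 94 of all genes passing), 2 with averaged probe sets (*Palb2* and *Parp2*), 5 without suffixed probe sets, 5 with array weights and 8 with the replicate block (6 higher and 2 lower). Without both arrays numbered 1 it was 4, of which 3 higher (*Brca1*, *Palb2* and *Msh6*) and 1 lower (*Rad52*), and *Chek1* was lost (0.43, adjusted p = 0.066 by limma). Leaving out each array in turn gave 1 to 2 repair genes, 1 to 3 further repair genes and 1 to 6 cell cycle genes. The number that passed over all 18193 genes moved as well, from 1206 in the main fit to 358 to 1166 with an array left out. It was 1255 with averaged probe sets, 1147 without suffixed probe sets and 1819 with array weights. With the replicate block it was 2221, and without both arrays numbered 1 it was 1842. *Chek1* was lost without any of the 6 arrays and *Palb2* without any but WT 1. Further repair genes that passed, 4, became 0 by the t-test, 7 with averaged probe sets and 1 with the covariate. Cell cycle genes, 5, became 0 by the t-test, 8 with the replicate block, 0 with the covariate and 8 without both arrays numbered 1. The median of the repair genes, 0.17, became 0.11 with averaged probe sets and 0.24 with the covariate, and ran from 0.11 to 0.20 with an array left out.

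Among the genes given with full values and their neighbours, the sign turned for *Fanca* (-0.0095) and *Fancc* (-0.021), and for *Parp1* (0.21), with averaged probe sets, for *Parp1* (0.63) and *Xrcc3* (0.076) without suffixed probe sets, for *Dctn5* (0.076), *Nbr1* (-0.088) and *Parp1* (0.10) with the covariate, for *Nbr1* without SOD1 G93A replicate 2 and for *Parp1* without WT replicate 1 (with an array left out they ran from -0.12 to 0.19 and from -0.30 to 0.089), and for *Fanca* (-0.058) and *Parp1* (0.032) without both arrays numbered 1. Over all 44 members, 9 changed sign in a fit that left out 1 array: *Parp1*, *Ercc1*, *Ercc4*, *Lig4*, *Ogg1*, *Rad52*, *Rnf8*, *Xrcc1* and *Xrcc5*, with values from -0.40 to 0.24. The causes of these changes were not tested. Deviations of arrays with the same number correlated at 0.44, 0.24 and 0.03, and SOD1 G93A 3 correlated best with WT 2 (0.40), so the numbers were not taken to pair the samples. With 3 arrays a genotype, changes of 1.5-fold were mostly not recovered on simulated data (17 of 50). There 17993 of the 18193 genes were left unchanged, whereas 1206 passed in the main fit. The adjusted threshold therefore differs, and the simulated recovery need not hold for these data.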

Other observations

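The arrays of a genotype differed in the repair genes. SOD1 G93A 1 was the highest of its 3 arrays in 26 of the 44 members (59.1%, beside 45.6% of all genes) and the lowest in 12. WT 1 was the highest of its 3 arrays in 18 members (40.9%, beside 41.7% of all genes) and the lowest in 17 (38.6%, beside 31.4%). It was the highest WT array for *Parp1*, *Xrcc3* and *Xpc* and the lowest for *Brca1* and *Rad52*, whose signal was 5.60 there and 6.36 and 6.47 on the other WT arrays.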
